A study of Xenopus laevis with 24 samples.

Results

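The change in gene expression between stages NF25 and NF33 was followed in Xenopus laevis foregut explants treated with BMS493, an inhibitor of retinoic acid receptors. How far signalling was blocked was not tested. The members are the 6 libraries labelled as BMS493 explants, 3 at each stage, of 24 libraries in the series, and every gene in the table was used. The change from NF25 to NF33 under BMS493 is called the BMS493 step below.

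Retinoic acid is made from vitamin A and acts through nuclear receptors of the RAR and RXR families, which sit on DNA and switch between repressing and activating nearby genes when the ligand binds. In vertebrate embryos the signal helps to set positions along the head-to-tail axis, and in the foregut it takes part in the growth of the pancreas and lung and in exchanges between endoderm and mesoderm. BMS493 is an inverse agonist of the RAR family: it holds these receptors in the repressing state, so that target genes are kept down rather than merely left without ligand.

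Explants of foregut endoderm with its mesoderm were cut from wild-type embryos (line NXR_0031) at stage NF15 and cultured at 15 °C for 16 hours to NF25 and a further 16 hours to NF33. BMS493 explants received 250 nM of the compound straight after dissection. Controls carried 2.5 ng of a mismatch morpholino and 0.1% DMSO, and the rfx6 group carried 2.5 ng of a translation-blocking morpholino against rfx6, an endocrine transcription factor. Controls and rfx6 morphants, but no BMS493 explants, were also cultured to NF38, with a last culture step of 12 hours (3 libraries each). The labels do not say whether BMS493 explants also carried a morpholino, and DMSO is recorded here for controls only. Each replicate pooled 8 explants, and the labels call the 3 replicates of a condition biological. The batch tag in the labels repeats the stage, so stage and batch cannot be told apart within any one step. In whole explants, fewer cells of a type and less RNA per cell cannot be told apart either.

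The 6 BMS493 libraries held 25053076 to 28229445 counts each, and the 24 libraries 19433955 to 31005048. Within the BMS493 groups, log2 CPM (counts relative to the library total, scaled between libraries) of any 2 libraries correlated across genes with r of 0.9868 to 0.9895. Genes are listed by number, as XBXL10_1g followed by a number, and of 44478 identifiers 0 matched the RefSeq gene table of assembly Xenopus_laevis_v10.1 as written and 1 after a prefix was removed. No gene is therefore named by symbol, and neither the tissue's marker genes nor known retinoic acid targets could be checked. The species is allotetraploid, so near-identical copies may share reads: 34 identifiers with at least 300 counts had counts equal to those of another identifier in every library. One such pair, XBXL10_1g11808 and XBXL10_1g11811, took 5.092% of the counts of BMS493 NF25 replicate 3 and 1.86 to 3.111% of those of the other 5 BMS493 libraries. That library is therefore left out in turn with the others below.

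Gene expression changed widely between NF25 and NF33 under BMS493. Of 28313 genes tested, 8724 changed at least 2-fold between NF25 and NF33 (30.8%; edgeR quasi-likelihood test, Benjamini-Hochberg adjusted p under 0.05). Of these, 4978 rose (17.6% of genes tested) and 3746 fell (13.2%). In controls the same step changed 9131 genes at least 2-fold (32.3%), 5359 up (18.9%) and 3772 down (13.3%). In rfx6 morphants it changed 7939 (28.0%), 4940 up (17.4%) and 2999 down (10.6%). These splits moved with the scale too: limma on log2(TPM + 1) gave 2263 up and 2607 down in controls, and total library size 6196 up and 2226 down in morphants. Without a limit on fold, 19709 genes passed under BMS493 (69.6%), 10161 higher (35.9%) and 9548 lower (33.7%). This near balance depended on the processing: total library size gave 12244 higher and 7415 lower. Limma leaned the other way, with 8483 higher and 9304 lower on log2(TPM + 1) and 8660 and 9300 on log2(TPM + 0.1). Total library size also moved the median log2 fold change of all genes from 0.038 to 0.198. Among genes changed at least 2-fold, 57.1% were higher, against 65% with total library size and 44.9% with limma on log2(TPM + 1), which shrinks changes of low genes.

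Rises ran to larger folds than falls. The median log2 fold change was 2.09 over the 4978 rising genes and -1.60 over the 3746 falling genes, beside 0.04 over all genes tested. With genes at 0 counts in 1 stage set to a floor of 3 counts over the group, these medians were 2.04 and -1.60. On that same floor, 715 rising genes (14.4%) changed at least 16-fold, against 164 falling genes (4.38%). Of the genes that rose, 346 had no count in any NF25 library, and of those that fell 42 had none at NF33. A gene that passed the filter on low counts only through the stage where it is high had to differ, so these shares describe the genes tested and not all genes.

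Among the genes tested, rises were more frequent at low level, and falls were spread more evenly over levels. A gene of low mean level passed the filter only if enough libraries of the series reached the minimum count. That favours changing genes in the low bins. The bins also use the libraries that define the step, so these shares carry no test. By mean level over the 6 libraries, 32.8% of genes between 0.2 and 1 CPM rose at least 2-fold and 14.7% fell. Under 0.2 CPM, 31.8% of 1374 genes rose and 6.7% fell, the lowest share of falls in any bin. Between 10 and 100 CPM, 7.14% rose and 12.8% fell, and over 100 CPM 6.45% rose and 14.3% fell. Transcript length was looked at only in genes with a mean of at least 0.5 TPM, so its shares are not compared with those by level. With length taken as counts per TPM (the deposited level per transcript length), 15.7% of the 5998 shortest genes (of those with a mean of at least 0.5 TPM) rose and 11.1% fell, against 13.2% and 12.7% of the 5998 longest.

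**Figure D1:**
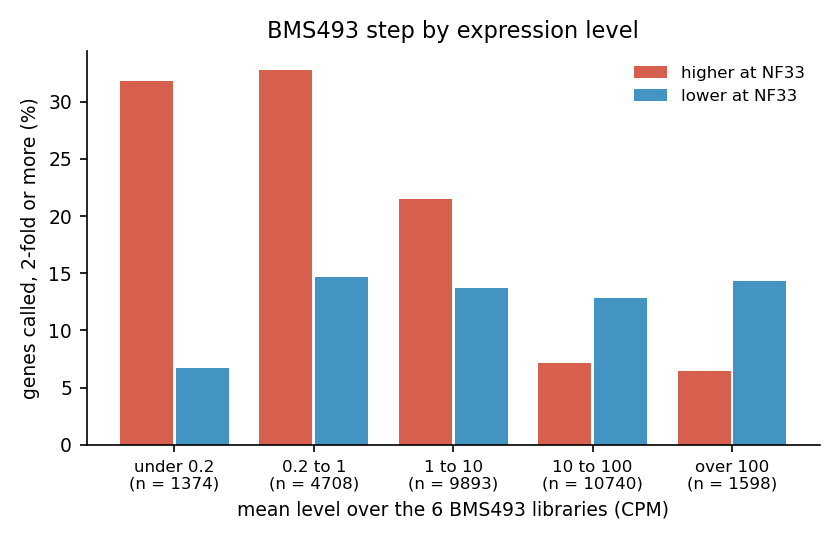
Share of genes called and changed at least 2-fold in the BMS493 step (vertical axis, %), by mean CPM over the 6 BMS493 libraries (horizontal axis, 5 bins with the number of genes in each). Red bars are genes higher and blue bars genes lower at NF33. Rises run from 32.8% between 0.2 and 1 CPM to 6.45% over 100 CPM. The filter on low counts favours changing genes in the low bins.

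The falling genes lost more summed CPM than the rising genes gained. CPM scaled between libraries do not add up to the same total in each library, so the gap between loss and gain depends on the scaling. These sums were not repeated on another scale. Together the 3746 falling genes took 224360, 231491 and 223077 CPM in the 3 NF25 libraries and 72592, 68678 and 70571 CPM in the 3 NF33 libraries. The 4978 rising genes went from 20384, 20809 and 20456 CPM to 101238, 103601 and 101126 CPM. These sums chose their own direction and carry no test. For the groups that did not choose the genes, the rising genes stood at 19909 ± 54.1 CPM in NF25 controls and 108453 ± 613 CPM in NF33 controls, and reached 181455 ± 934 CPM in NF38 controls (SD, n = 3). In rfx6 morphants at NF33 the same genes were at 72202 ± 703 CPM. The falling genes stood at 78013 ± 1310 CPM in NF33 controls and at 121662 ± 2180 CPM in NF33 rfx6 morphants. The genes were chosen on BMS493 values, so the gaps between treatments are not tested on them.

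**Figure D2:**
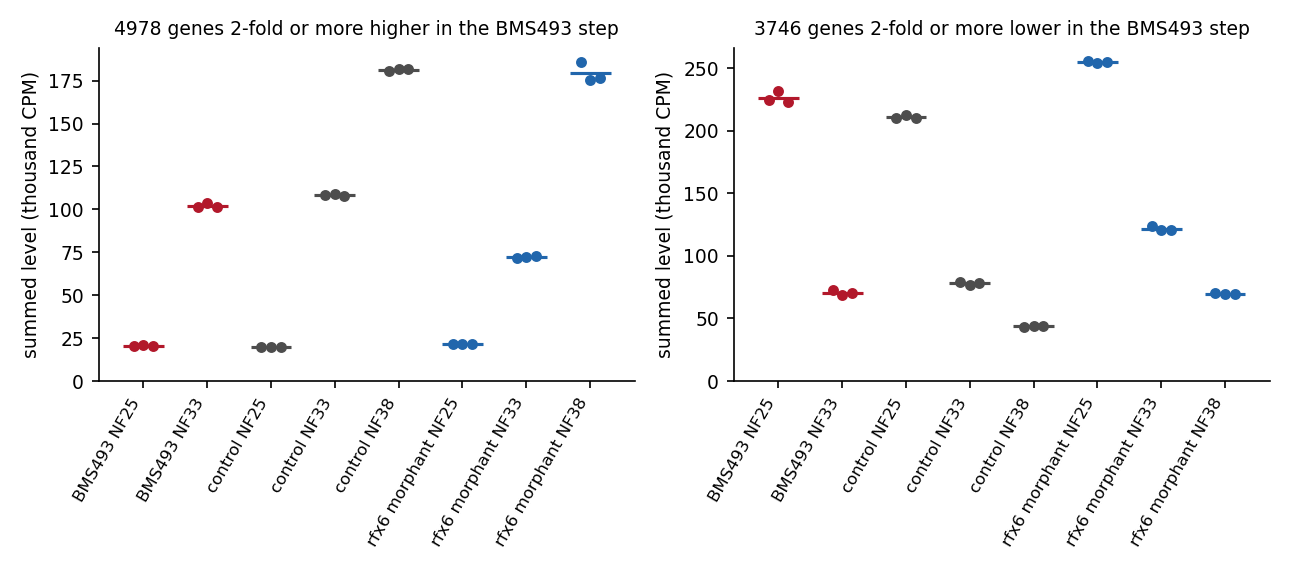
Summed CPM (vertical axis, scaled as the axis label says) of the genes that rose (left) and fell (right) at least 2-fold in the BMS493 step, in all 8 groups (horizontal axis); points are the 3 libraries and lines their means. The rising genes climbed from 20549 to 101988 CPM under BMS493 and from 19909 to 108453 CPM in controls.

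Per transcript length, 21.5% of the total TPM changed hands between the mean NF25 and mean NF33 profiles under BMS493, counted as the sum of the absolute differences divided by 2. Single NF25 and NF33 libraries differed by 21.0 to 23.3%, and libraries within a BMS493 group by 2.74 to 5.59%. Controls exchanged 23.0% and rfx6 morphants 19.7% over the same step. The control and BMS493 ranges between single libraries overlapped, with 22.8 to 23.7% in controls. Few genes carried the gain: 122 of the 18040 genes with a higher mean TPM made up 50% of it, and 195 of 17971 made up 50% of the loss. More genes were present at the later stage. At least 1 CPM was reached by 21260, 21188 and 21257 genes in the NF25 libraries and by 22305, 22277 and 22395 in the NF33 libraries. That is 1091 more on average, with no overlap between the stages (exact two-sided permutation p = 0.1, n = 3, the smallest possible). The other treatments gained alike, with 1167 more genes in controls and 993 more in rfx6 morphants.

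Among genes with at least 300 counts over the libraries compared and at least 4 in each group, the largest changes were switches between near absence and abundance. Genes with fewer counts in a group reached larger fitted changes, which depend on the prior count and are not ranked here. Each SE is the absolute log2 change divided by the square root of the F value of its test. It is not a direct standard error and can be too small where a group is near 0 counts. XBXL10_1g23921 stood at 0.0757, 0.0849 and 0.0390 CPM in the NF25 libraries and at 949, 998 and 954 CPM at NF33, a log2 change of 13.74 (SE 0.13; edgeR adjusted p = 4.39e-61). The gene rose in all 3 treatments, from 1.19 ± 0.285 to 2150 ± 63.1 CPM in controls and from 0.209 ± 0.189 to 491 ± 25.3 CPM in rfx6 morphants (SD, n = 3). The log2 fold change under BMS493 was 2.93 larger than in controls (SE 0.44; edgeR adjusted p = 3.53e-07), while the levels at both stages were lower than in controls. Step SEs of 0.13 under BMS493 and 0.10 in controls are too small to give this 0.44. The SEs of such folds, here and below, are therefore not read as their precision. XBXL10_1g33347 stood at 0.0379, 0.0425 and 0.156 CPM and then at 830, 846 and 806 CPM, a log2 change of 13.26 (SE 0.12; edgeR adjusted p = 2.91e-64). In controls it reached 962 ± 17.5 CPM at NF33, and its difference from the control step was 0.44 (SE 0.66; edgeR adjusted p = 0.717).

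Among falling genes, XBXL10_1g39751 went from 10.1, 11.9 and 11.2 CPM to 0.0365, 0.0782 and 0.0359 CPM, a log2 change of -7.67 (SE 0.30; edgeR adjusted p = 1.22e-35). Controls stood at 11.2 ± 1.05 CPM at NF25 and at 0.0375 ± 0.0382 CPM at NF33, while rfx6 morphants at NF33 still held 0.443 ± 0.0449 CPM (SD, n = 3). XBXL10_1g32605 went from 16.7, 18.4 and 16.6 CPM to 0.0365, 0.156 and 0.108 CPM, a log2 change of -7.37 (SE 0.24; edgeR adjusted p = 1.69e-39). It started higher under BMS493 than in controls, which stood at 8.97 ± 0.445 CPM, and ended at 0.111 ± 0.0404 CPM in controls. Rfx6 morphants held 2.00 ± 0.707 CPM at NF33. Both genes had 0 counts in all 3 NF38 controls, where a floor of 3 counts over the group corresponds to 0.0353 CPM.

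Stricter rules for turning on and off gave shorter lists. A gene was called switched on when it stood under 0.2 CPM in all 3 NF25 libraries and over 1 CPM in all 3 NF33 libraries, and passed the test. Under BMS493, 312 genes switched on (1.10% of genes tested) and 52 switched off (0.184%). Controls switched on 399 genes (1.41%) and off 81 (0.286%), and rfx6 morphants 214 (0.756%) and 43 (0.152%). The genes switched on under BMS493 had a median of 2.71 CPM at NF33 and the highest reached 1120 CPM. The levels of NF38 controls were no criterion of the choice, though these libraries entered the same filter and model. There, 280 of the 312 stood over 1 CPM on average. Their median was 6.69 CPM, beside 7.57 CPM over all genes tested. The share of all genes over 1 CPM in NF38 controls was not counted, so nothing is read from the 280. Of the 52 genes switched off, 1 stood over 1 CPM in NF38 controls.

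Most of these genes moved the same way in controls, also where they missed the strict limits there. Of the 312 genes switched on under BMS493, 168 also switched on in controls, 53.8% of the BMS493 list and 42.1% of the control list. A further 112 rose at least 2-fold in controls, which makes 280 of 312, beside 18.9% of all genes tested. The test of the difference between steps called a larger rise under BMS493 for 40 of the 312 and a smaller one for 5, where 11.6% and 14.8% of all genes tested were called in these directions. The 312 and the 52 were chosen on BMS493 values and the 399 and 81 on control values, which favours larger changes in the treatment that chose them, so nothing is read from these counts. Of the 399 genes switched on in controls, 392 rose at least 2-fold under BMS493, beside 17.6% of all genes tested. For 104 of the 399 the rise was smaller by the test of the difference. All 52 genes switched off under BMS493 fell at least 2-fold in controls, beside 13.3% of all genes tested. Of the 81 switched off in controls, 72 fell at least 2-fold under BMS493, beside 13.2% of all genes tested. For 31 of those 81 the fall was smaller under BMS493 by the test of the difference, a direction called for 11.6% of all genes tested.

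Which genes still changed under BMS493 was then asked over all genes, by setting each gene's BMS493 step beside its control step. These steps share no library. Of the 5359 genes that rose at least 2-fold in controls, 3819 (71.3%) also did so under BMS493, and these made up 76.7% of the 4978 BMS493 rises. With limma on log2(TPM + 1), 1425 of 2263 control rises were shared. Of the 3772 control falls, 2701 (71.6%) were also falls under BMS493, 72.1% of the 3746. Opposite changes were rare, with 57 genes that rose under BMS493 and fell in controls and 15 the other way. Across the 22311 genes with a mean of at least 1 CPM, the log2 fold changes of the BMS493 and control steps correlated with Pearson's r of 0.882 and Spearman's rho of 0.870, given as a description over genes that share libraries.

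The test of the difference between the steps called 7475 genes (26.4%), and the step was more positive under BMS493 for 3279 (11.6%) and more negative for 4196 (14.8%). A shift shared on the log scale by all libraries of a stage drops out of this difference. The majority depended on the processing: total library size gave 4120 higher and 3171 lower, limma on log2(TPM + 1) 3720 and 2910, and limma on log2(TPM + 0.1) 3525 and 2737. Of the 7475 genes, 2175 differed at least 2-fold between the steps (7.68% of genes tested), 975 higher and 1200 lower. Within shared rises the balance leaned to smaller ones in the main fit, the only fit in which it was counted. Of the 3819 genes that rose in both, 747 rose less under BMS493 by the test of the difference, 205 rose more, and 2867 were not called. Their median log2 fold change was 2.26 under BMS493 and 2.55 in controls, or 2.19 and 2.45 with genes at 0 counts set to the floor. Shared falls were even in that fit. Of 2701 genes, 367 fell less, 405 fell more and 1929 were not called, with medians of -1.76 and -1.74.

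**Figure D3:**
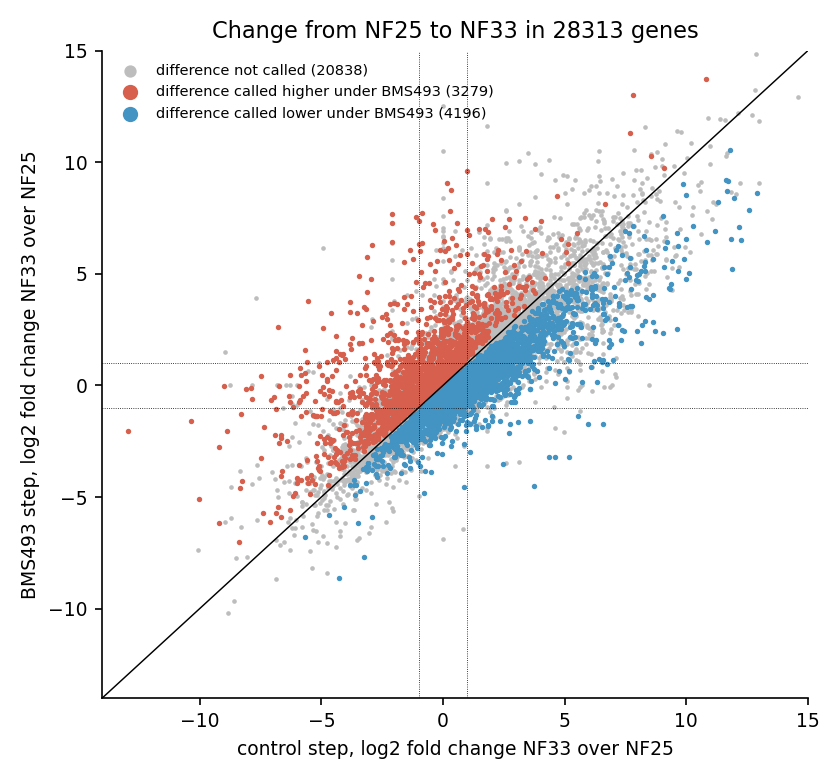
Log2 fold change from NF25 to NF33 under BMS493 (vertical axis) against that in controls (horizontal axis) for the 28313 genes tested; the line marks equal change and dotted lines 2-fold change. Red and blue points are the 3279 and 4196 genes whose difference was called higher or lower under BMS493, and grey points are the other genes tested.

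The 747 shared rises that were smaller under BMS493 began, by their median, from a higher level. It was 2.42 CPM under BMS493 and 1.29 CPM in controls at NF25, and 13.0 against 16.2 CPM at NF33. Measured on log2 CPM, the gap between treatments was wider at NF25 than at NF33 for 497 of the 747 (66.5%), against 15139 of all 28313 genes tested (53.5%). The 205 larger rises began, by their median, from a lower level, with 1.10 against 1.73 CPM at NF25 and 11.1 against 7.53 CPM at NF33. Choosing genes by the difference fixes part of these directions, so they are given as levels without a test.

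A rise of at least 2-fold in controls was not reached under BMS493 by 770 genes for which the difference was also called. Of those, 470 still rose by less than 2-fold, 262 were not called and 38 fell. Their median went from 4.35 to 6.27 CPM under BMS493 and from 2.97 to 8.20 CPM in controls. At NF25, 714 of the 770 stood higher under BMS493 than in controls, and at NF33 97 did. Choosing genes by a lower difference favours a higher start or a lower end under BMS493, so these counts carry no test. In NF38 controls their median was 8.87 CPM. Another 770 control rises fell short of 2-fold under BMS493 without a called difference, and are not part of this set.

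Conversely, 467 genes rose at least 2-fold under BMS493 and not in controls, with the difference called. Their median went from 0.974 to 3.79 CPM under BMS493, and was 1.27 and 1.23 CPM in controls at NF25 and NF33. In NF38 controls the median was 3.31 CPM, beside 7.57 CPM over all genes tested. NF38 levels were no criterion of the choice, though these libraries entered the same filter and model. The choice favours low control levels at NF33, so nothing is read from the higher level at NF38. In the control step, 227 of the 467 were not called, 151 rose by less than 2-fold and 89 fell. At NF33, 404 of the 467 stood higher under BMS493, a direction that the choice by the difference favours. In rfx6 morphants the median log2 fold change of these genes over the step was 0.70, against 1.72 under BMS493 and 0.14 in controls.

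Falls differed in the same 2 ways. A control fall of at least 2-fold was not reached under BMS493 by 560 genes with a called difference, of which 274 fell by less than 2-fold, 204 were not called and 82 rose. Their median went from 4.32 to 3.47 CPM under BMS493 and from 6.27 to 1.84 CPM in controls. At NF33, 501 of the 560 stood higher under BMS493, which the choice by the difference again favours. Another 510 genes fell at least 2-fold under BMS493 and not in controls, from a median of 15.7 to 6.43 CPM, against 11.8 and 8.51 CPM in controls. Of these, 335 fell by less than 2-fold in controls, 145 were not called and 30 rose. In NF38 controls their median was 6.34 CPM. The sets overlap through the genes with opposite changes: 57 are in both the 467 and the 560, and 15 in both the 770 and the 510.

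**Figure D4:**
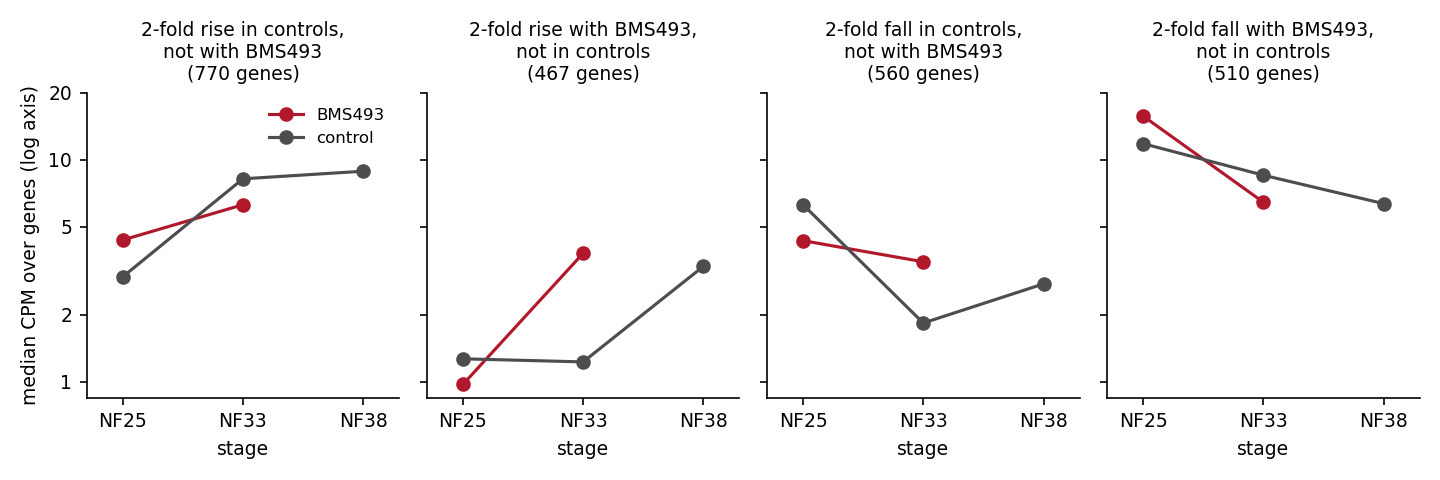
Median CPM over genes (vertical axis, log scale) by stage (horizontal axis) under BMS493 (red) and in controls (grey) for 4 sets of genes with the difference called. Each set rose or fell at least 2-fold in 1 of these treatments and did not do so in the other. The 57 and 15 genes with opposite changes of at least 2-fold are in 2 sets each. In the second panel the 467 genes reach 3.79 CPM under BMS493 at NF33, against 1.23 CPM in controls at NF33 and 3.31 CPM in controls at NF38. The choice of these genes favours high BMS493 and low control levels at NF33.

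Under the same count limits, the most positive differences from the control step were falls that were smaller under BMS493. XBXL10_1g17973 went from 378, 302 and 363 CPM to 86.1, 81.5 and 85.3 CPM under BMS493, a log2 change of -2.05 (SE 0.07; edgeR adjusted p = 7.51e-20). In controls it went from 485, 571 and 531 CPM to 0.0764, 0.0720 and 0.0365 CPM. The steps differed by 10.92 on the log2 scale (SE 0.22; edgeR adjusted p = 2.69e-23). XBXL10_1g20751 went from 68.9, 54.5 and 70.2 CPM to 23.4, 19.4 and 21.9 CPM under BMS493, and from 64.6, 78.6 and 69.0 CPM to 0.0382, 0.0720 and 0.0365 CPM in controls. Its steps differed by 8.77 (SE 0.35; edgeR adjusted p = 1.38e-14). Both genes were near 0 counts in NF33 controls, so the sizes of these differences and their SEs are not precise. With limma on log2(TPM + 1) the differences were 3.40 and 1.37. At NF25 the BMS493 and control libraries of XBXL10_1g20751 overlapped, and at NF33 all 3 BMS493 libraries were far above all 3 controls for both genes. In rfx6 morphants XBXL10_1g17973 stood at 745 ± 34.9 CPM at NF25, 0.192 ± 0.106 CPM at NF33 and 22.5 ± 0.726 CPM at NF38 (SD, n = 3). XBXL10_1g20751 stood there at 269 ± 19.8, 0.0555 ± 0.0503 and 10.7 ± 0.632 CPM. Both genes were thus higher again in NF38 morphants, and the cause was not tested.

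In the other direction, XBXL10_1g43751 rose under BMS493 from 2.80, 4.50 and 3.51 CPM to 449, 519 and 499 CPM, a log2 change of 7.09 (SE 0.08; edgeR adjusted p = 7.73e-45). In controls it stood at 0.141, 0 and 0.0900 CPM at NF25 and at 396, 399 and 378 CPM at NF33, so that the steps differed by -5.08 (SE 0.37; edgeR adjusted p = 1.24e-14). Every BMS493 library was above every control at both stages, and the wider gap was at NF25. XBXL10_1g24290 stood at 1.78, 1.57 and 1.71 CPM and then at 2.19, 2.03 and 2.01 CPM under BMS493, a log2 change of 0.30 that did not pass (SE 0.19; edgeR adjusted p = 0.164). Controls went from 0.141, 0 and 0.0900 CPM to 2.83, 2.63 and 2.81 CPM, and the difference of -4.73 was called (SE 0.46; edgeR adjusted p = 9.49e-14). Controls reached 19.6 ± 1.35 CPM at NF38 (SD, n = 3).

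**Figure D5:**
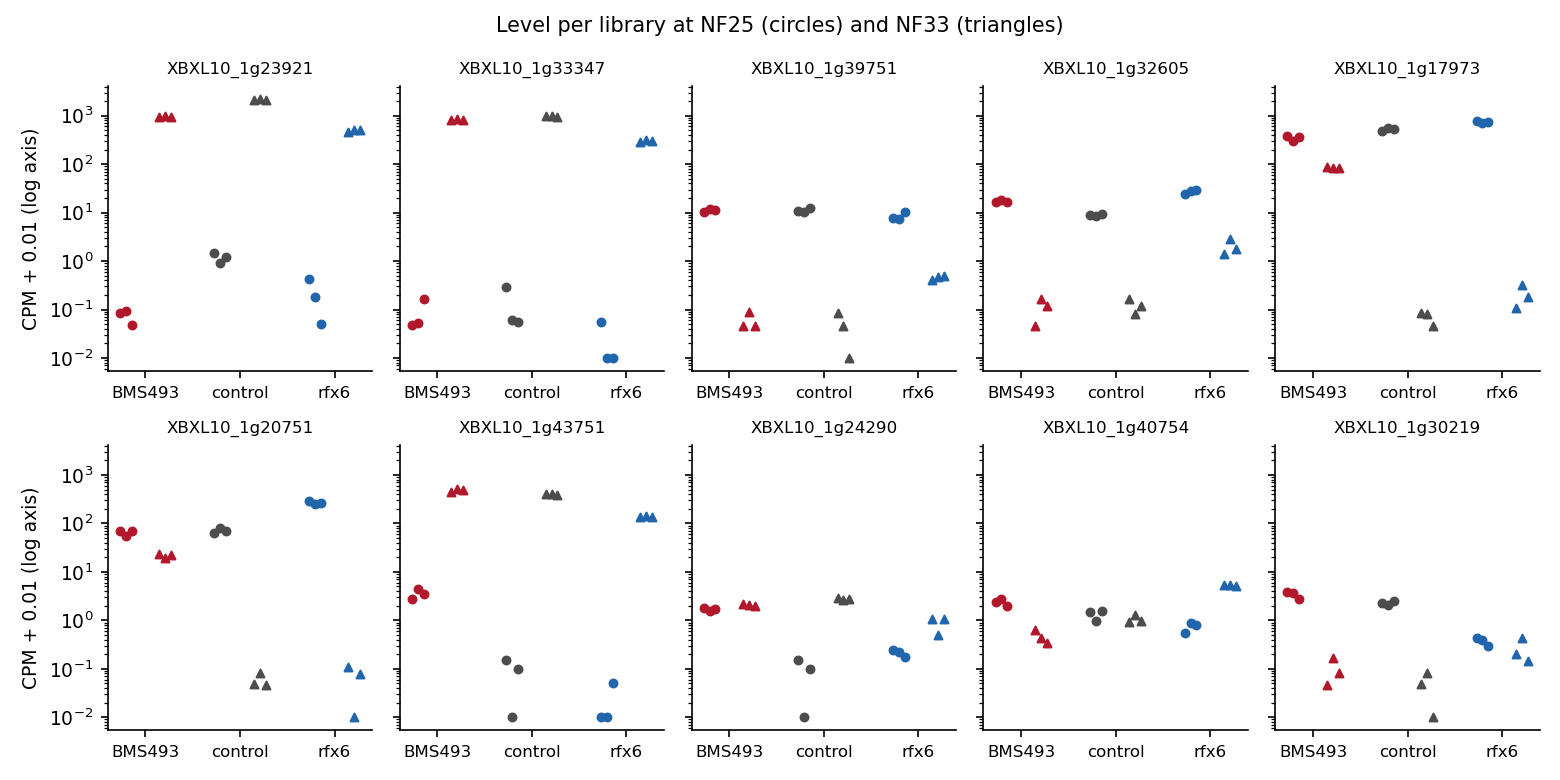
Level of 10 genes in each library (vertical axis, CPM + 0.01, log scale) at NF25 (circles) and NF33 (triangles) under BMS493, in controls and in rfx6 morphants (horizontal axis). At NF33, XBXL10_1g17973 and XBXL10_1g20751 stand at 84.3 and 21.5 CPM on average under BMS493 and below 1 CPM in both other treatments.

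Against the rfx6 step the BMS493 step differed in more genes than against the control step, although no test compared these counts. The test of the difference called 10283 genes (36.3%), with the BMS493 step more positive for 4341 (15.3%) and more negative for 5942 (21.0%). This lean depended on scaling: DESeq2 size factors gave 4950 and 5278, total library size 3457 and 6710, and limma on log2(TPM + 0.1) 2947 and 6300. Of the 4978 BMS493 rises, 3325 (66.8%) also rose at least 2-fold in rfx6 morphants, 67.3% of the 4940 rises there. Of the 3746 BMS493 falls, 2033 (54.3%) were also falls in morphants, 67.8% of the 2999. For 1201 of the 1674 BMS493 falls that did not change 2-fold in morphants, the difference was called, always lower. That direction was called for 21.0% of all genes tested. The choice of these genes favours it, so nothing is read from the count. Rises and falls of at least 2-fold in all 3 treatments numbered 2878 (57.8% of the BMS493 rises) and 1817 (48.5% of the falls). A rise of at least 2-fold under BMS493 alone, with both differences called, was seen for 235 genes (4.72% of 4978), and such a fall for 400 (10.7% of 3746). Both differences share the 6 BMS493 libraries.

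Under the same count limits, the widest differences from the rfx6 step in the higher direction were again XBXL10_1g20751, at 10.71 (SE 0.30; edgeR adjusted p = 9.04e-18), and XBXL10_1g17973, at 9.74 (SE 0.18; edgeR adjusted p = 2.46e-24). In the lower direction, XBXL10_1g40754 fell under BMS493 from 2.35, 2.80 and 1.95 CPM to 0.621, 0.430 and 0.323 CPM. In rfx6 morphants it rose from 0.550, 0.867 and 0.806 CPM to 5.40, 5.23 and 5.16 CPM, a difference of -5.16 (SE 0.35; edgeR adjusted p = 2.35e-21). In controls the gene stood at 1.31 ± 0.321 and 1.05 ± 0.210 CPM, a change that did not pass (SD, n = 3; edgeR adjusted p = 0.264). XBXL10_1g30219 fell under BMS493 from 3.86, 3.70 and 2.80 CPM to 0.0365, 0.156 and 0.0717 CPM. Morphants stood at 0.412, 0.390 and 0.282 CPM and then at 0.196, 0.428 and 0.137 CPM, and the difference was -4.81 (SE 0.71; edgeR adjusted p = 4.60e-08). Controls went from 2.29 ± 0.217 to 0.0367 ± 0.0360 CPM (SD, n = 3).

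Changed genes had a neighbouring identifier number that changed alike more often than the share of such genes among all tested. Of 3758 genes that rose at least 2-fold and whose next number was also tested, 934 (24.9%) had a next number that rose too, against 17.6% of all genes tested. For falls it was 609 of 2776 (21.9%), against 13.2%. For genes whose step was at least 2-fold higher than in controls it was 71 of 732 (9.70%), against 3.44%, and for the lower ones 89 of 882 (10.1%), against 4.24%. Up to 11 consecutive numbers rose together and up to 8 fell together. The 2 pairs with identical counts were left out, other near-identical copies were not, and the sources used here do not say whether numbers follow position in the genome.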

How the data were processed

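RNA from pooled explants was made into stranded mRNA libraries, per the labels' protocols. The authors deposited estimated counts per gene, stored as whole numbers, and TPM per gene, both with 1 column per library. RSEM 1.3.0 and Bowtie2 are named, with no role, per the submitters' processing notes. No source used here gives the genome build, the annotation or the strand setting of the counting. The row lacking any gene identifier (0% of counts) was dropped.

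Counts, rounded where needed, were fitted with edgeR 4.0.16 in R 4.3.3. All 24 libraries in 8 groups entered 1 quasi-likelihood model with TMM scaling, after filterByExpr (minimum count 10, minimum total 15) had left 28313 of 44478 genes. A filter on the 6 BMS493 libraries alone left 25585. Calls needed a p under 0.05 after Benjamini-Hochberg adjustment across every tested gene, and changes of at least 2-fold are counted separately. The steps and their differences were contrasts of that model. CPM are on the TMM scale. SE values were derived from the F value of each quasi-likelihood test, as the absolute log2 fold change divided by its square root. Gaps between treatments used log2 CPM with a prior count of 2. P-values measure the spread between pools of explants. The comparisons and gene sets were chosen with earlier results of these data known. Named identifiers are the 2 highest and 2 lowest by log2 fold change in each of 3 contrasts. They came from called genes with at least 300 counts in the compared libraries and at least 4 in each group. Gene lists by symbol, planned for the case that identifiers could be matched, were not run.

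Alternatives were other scalings, no filter, DESeq2 1.42.0, limma 3.58.1 on log2 TPM with a pseudocount of 1 or 0.1, fits to the compared libraries alone, a replicate block and leaving out each library. The code was tested on simulated data.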

Additional observations from a re-analysis of the deposited data

Results flagged for a closer look

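The change from NF25 to NF33 differed between BMS493 explants and the other treatments by tests of the difference itself, fitted over all genes with edgeR. Against controls, 3279 genes had a more positive and 4196 a more negative step under BMS493. Against rfx6 morphants, the counts were 4341 and 5942.

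Among the identifiers named in the report, the difference from the control step was 10.92 on the log2 scale for XBXL10_1g17973 and 8.77 for XBXL10_1g20751, which fell to below 0.1 CPM in controls and stayed above that level in all 3 BMS493 libraries at NF33. It was -5.08 for XBXL10_1g43751 and -4.73 for XBXL10_1g24290, which started higher under BMS493. The difference from the rfx6 step was 10.71 for XBXL10_1g20751 and 9.74 for XBXL10_1g17973. It was -5.16 for XBXL10_1g40754, which fell under BMS493 and rose in rfx6 morphants. For XBXL10_1g30219 it was -4.81. That gene fell under BMS493 and in controls alike, with log2 changes of -5.24 and -5.78, and stood at only 0.362 CPM in NF25 morphants. The labels do not say whether BMS493 explants and controls came from the same parents.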

How the results depend on the processing

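The 12 results for named identifiers kept their direction and their call in all 252 alternative values. These identifiers were chosen as the widest called changes in the same libraries, which favours that outcome. The alternative with BMS493 NF25 replicate 1 as the TMM reference was the main fit itself, so its values could not differ. Limma on log2(TPM + 1) shrank the named results: the difference from the control step fell to 3.40 for XBXL10_1g17973, 1.37 for XBXL10_1g20751 and -0.93 for XBXL10_1g24290. Counts moved by more than 1.5 times mainly with limma on log2(TPM + 1), whose pseudocount shrinks changes of low genes. It gave 1933 genes at least 2-fold higher and 2375 lower in the BMS493 step, in place of 4978 and 3746. It also gave 2263 control rises in place of 5359, and 2086 rises and 1618 falls in rfx6 morphants in place of 4940 and 2999. Shared rises of BMS493 and controls numbered 1425 in place of 3819, and falls of at least 2-fold under BMS493 and not in controls 256 in place of 510. With a pseudocount of 0.1, 2737 genes had a lower step under BMS493 than in controls, in place of 4196; the cause was not tested. The gain in genes detected, 1091 at 1 CPM, was 409 at 5 CPM and 1405 with total library size. The other 373 alternative values of counts and summary measures stayed within 1.5 times or within the spread between libraries. They include those of the alternative that equals the main fit. Leaving out each library in turn gave 4909 to 5065 rises and 3591 to 3757 falls of at least 2-fold in the BMS493 step. With BMS493 NF33 or control NF33 replicate 1 as the TMM reference, alternatives chosen after seeing the data, there were 4985 and 5083 rises.

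Replicate numbers are shared by the groups, but libraries with the same number deviated together only weakly. Between the BMS493 stages the correlations of their deviations were 0.034, 0.060 and 0.011. Between BMS493 and control libraries at NF33 they were 0.030, 0.026 and 0.053, all above the -0.034 to 0.003 of different numbers. A replicate block gave 4957 rises and 3727 falls of at least 2-fold, and 3233 higher and 4121 lower differences from the control step. Between BMS493 libraries of the 2 stages with different numbers the correlations were -0.068 to 0.039. The same-number correlations stayed under the limit of 0.1 set for pairing, so the numbers were not taken as pairs.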
